A study of Mus musculus with 15 samples.

Results

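The replication and division genes of the mouse submandibular gland were followed through irradiation and gene transfer. The set holds 33 genes, a list of names with no threshold on measured values, of 39179 genes in the deposited tables. Of these, 12 act in DNA replication and 21 in mitosis, and both classes were read separately. All 33 were found in the tables by Ensembl identifier.

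The glands came from adult male C57BL/6 mice in 5 groups of 3 libraries each. NT glands were wild type and untreated, and IR glands were wild type and taken 7 days after local irradiation. IR+GFP, IR+Gli1 and IR+Shh glands were also taken 7 days after local irradiation and had the gene of green fluorescent protein, of Gli1 or of Shh transferred into the gland. Shh is a secreted ligand that starts Hedgehog signalling, Gli1 is a transcription factor at its far end, and GFP serves as the control for the transfer. The dose of irradiation, the vector, the promoter that drives each transferred gene and its species are not given in the sources used here. In such glands the cells that take up a transferred gene and the cells that do not are sequenced together.

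A cell that enters the cycle first loads the MCM helicase, a ring of the proteins Mcm2 to Mcm7, onto its replication origins with the help of Cdt1. In S phase Pcna clamps the polymerases to the DNA while Rrm2 and Tyms supply nucleotides, and E2F factors, with E2f1 among them, switch on these genes. In G2 and M phase the cyclins Ccna2, Ccnb1 and Ccnb2 activate the kinase Cdk1, and spindle motors, kinetochore proteins and the anaphase-promoting complex then carry the chromosomes through division. Few cells of an adult submandibular gland divide, and cells that are hit by radiation arrest through p53 and its target Cdkn1a, which encodes the inhibitor p21.

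Gene reads ranged from 18205941 to 41064723 per library. In each group 1 pair of libraries was near-identical: a chi-square comparison of their counts gave 0.215 to 0.337 per gene, against 22.0 to 223 for the 10 remaining pairs within groups. Each such pair was counted as 1 sample by its mean, which left n = 2 per group: NT 1 and NT 2+3, IR 1+2 and IR 3, IR+GFP 1+2 and IR+GFP 3, IR+Gli1 1+2 and IR+Gli1 3, IR+Shh 1+3 and IR+Shh 2. Where a sentence gives 2 values for a group, the sample holding library 1 comes first. IR+GFP 3 and IR+Gli1 3 stood apart by their reads with several alignments, 8.22% and 7.53% against 2.89% to 4.79% in the other libraries. Genes of granular convoluted tubules summed to 51380 to 308500 CPM and acinar genes to 12640 to 54730 CPM over the 10 samples, so the defining genes of the labelled tissue were present. Genes of the neighbouring sublingual gland summed to 1468 CPM in NT 2+3 and to 19.7 to 65.3 CPM in the rest. Of these genes, Muc19 stood at 1368 CPM in NT 2+3, 21.6 CPM in IR+GFP 1+2 and 0.0791 to 0.373 CPM in the other samples. Dcpp1, listed with acinar genes, stood at 4000, 17.8 and 0.108 to 0.48 CPM in the same order. Galnt12 was raised in NT 2+3 alone, with 47.1 CPM against 1.3 to 1.91 CPM. The part of such tissue in the levels of the members was not tested. No label says that libraries came from separate animals, so every p-value refers only to how far these samples spread. All levels are TMM-scaled CPM, read counts divided by sequencing depth, with the SD over 2 samples. Each log2 fold change is followed by an approximate standard error, its absolute value divided by the square root of the edgeR quasi-likelihood F statistic. The p-values are adjusted over the 14304 genes tested. In bulk RNA, fewer cycling cells and less RNA of these genes per cell cannot be told apart.

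Both classes were present at low levels in NT and were ordered differently over the groups. Replication members had 15 to 1918 reads in a library (median 104.5) and mitosis members 0 to 302 (median 21). Per kilobase of exon, the median level in NT was 0.861 CPM for replication members and 0.208 CPM for mitosis members. The 12 replication members summed to 104.2 ± 5.06 CPM in IR+Gli1, 83.3 ± 2.12 CPM in NT, 80.0 ± 1.58 CPM in IR+Shh, 73.2 ± 4.31 CPM in IR+GFP and 70.9 ± 2.16 CPM in IR. Their sum was thus highest in IR+Gli1, and both irradiated groups without Gli1 or Shh lay under NT. The 21 mitosis members summed to 25.6 ± 8.53 CPM in IR+Gli1, 22.7 ± 4.42 CPM in IR+Shh, 21.5 ± 0.689 CPM in NT, 18.3 ± 3.36 CPM in IR and 11.5 ± 2.49 CPM in IR+GFP. Here IR+GFP was lowest, and the SD of IR+Gli1 spanned the levels of NT, IR and IR+Shh.

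The group with the lowest mean was not the same in both classes. It was IR+GFP for 19 of 21 mitosis members but for 4 of 12 replication members, of which 7 were lowest in IR. The highest mean was in IR+Gli1 for 10 of 12 replication members and for 14 of 21 mitosis members. Relative to the NT mean, the median log2 difference of the replication members was 0.44 in IR+Gli1 1+2 and 0.51 in IR+Gli1 3. For mitosis members it was 0.58 in IR+Gli1 1+2 and -0.14 in IR+Gli1 3, so the samples of this group were alike in replication genes and apart in mitosis genes. In IR+GFP the mitosis median was -0.98 in IR+GFP 1+2 and -0.47 in IR+GFP 3, both under the values of the 8 other samples.

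**Figure D1:**
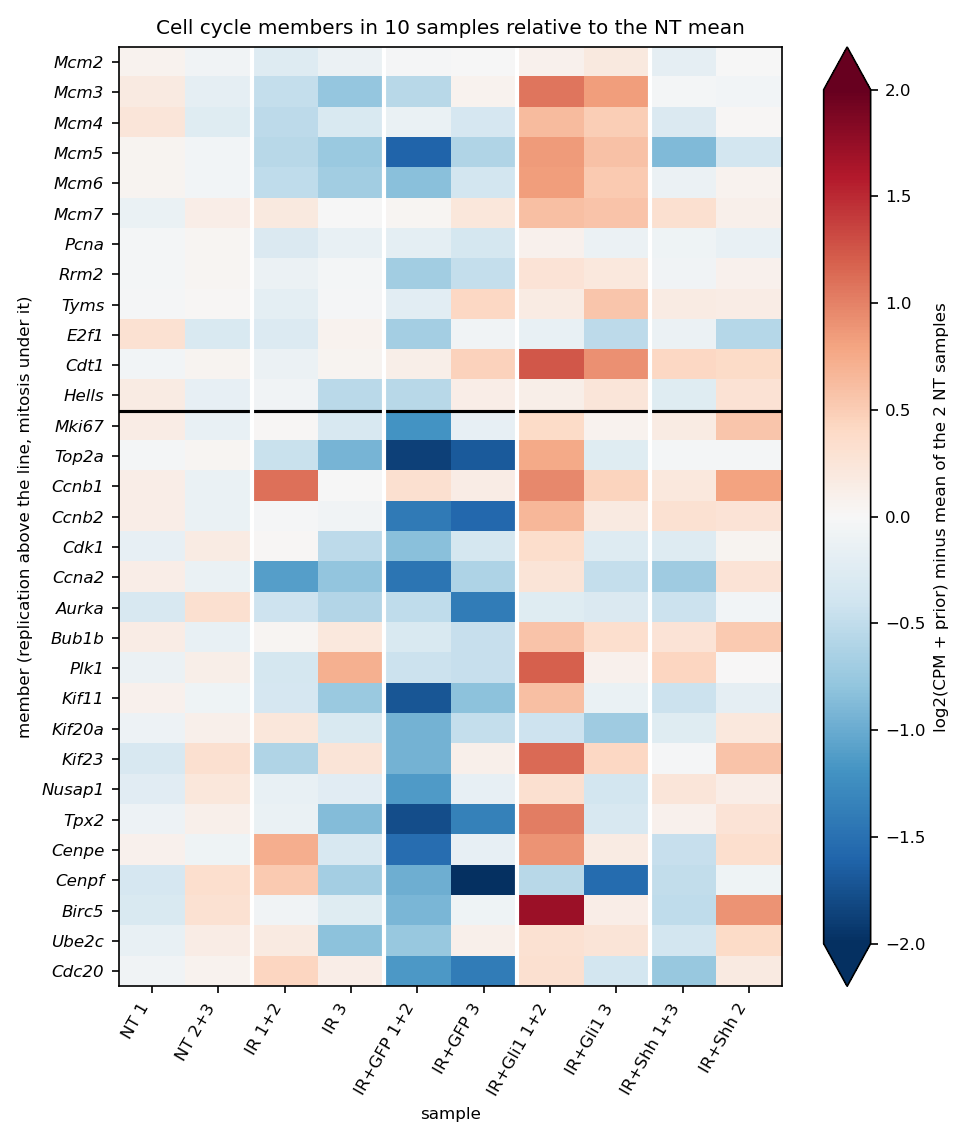
Level of each of the 31 members that passed the filter on low counts (vertical axis) in the 10 samples (horizontal axis), as log2(CPM + prior count) minus the mean of the 2 NT samples, with colours capped at 2 either way. Red in the IR+Gli1 columns runs through the Mcm genes above the line, and blue in the IR+GFP columns lies mostly under it, among mitosis members.

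The promoters of the classes carried different short sequences. Promoters here are the RefSeq windows on GRCm38.p6 from 250 bases before to 50 after a transcription start. They were available for 28 of the 33 members, 11 of replication and 17 of mitosis; those of Mcm4, Aurkb, Kif20a, Ccna2 and Tpx2 are not analysed here. Both strands were searched for the E2F words TTTCCCGC, TTTCGCGC, TTTGCCGC and TTTGGCGC, for the cell cycle homology region (CHR) word TTTGAA, and for the CCAAT box. E2F factors bind such words in S phase genes, whereas CHR and CCAAT elements are known from genes of G2 and M phase. An E2F word was found for 6 of 11 replication members (54.5%; Mcm3, Mcm5, Mcm6, Mcm7, Cdt1 and Hells), for 1 of 17 mitosis members (5.88%; Cdk1) and in 2.26% of the 32851 promoters of the table. The CHR word was found for 1 of 11 replication members (9.09%; Mcm2), for 12 of 17 mitosis members (70.6%) and in 17.9% of all promoters. A CCAAT box was found for 7 of 11 replication members (63.6%), for 15 of 17 mitosis members (88.2%) and in 37.4% of all promoters. CHR and CCAAT stood together for 12 of 17 mitosis members (70.6%) and in 6.95% of all promoters. The E2f1 window, chr2:154569377-154569676 on the minus strand, lies inside its GENCODE vM21 gene, whose 5′ end is at 154569892. The bases before that end were not searched, so E2f1 counts as lacking an E2F word only for this window. Both Mcm7 windows also lie inside the gene. A match is a description of letters and not a bound site, and a window without one says nothing about the factor.

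**Figure D2:**
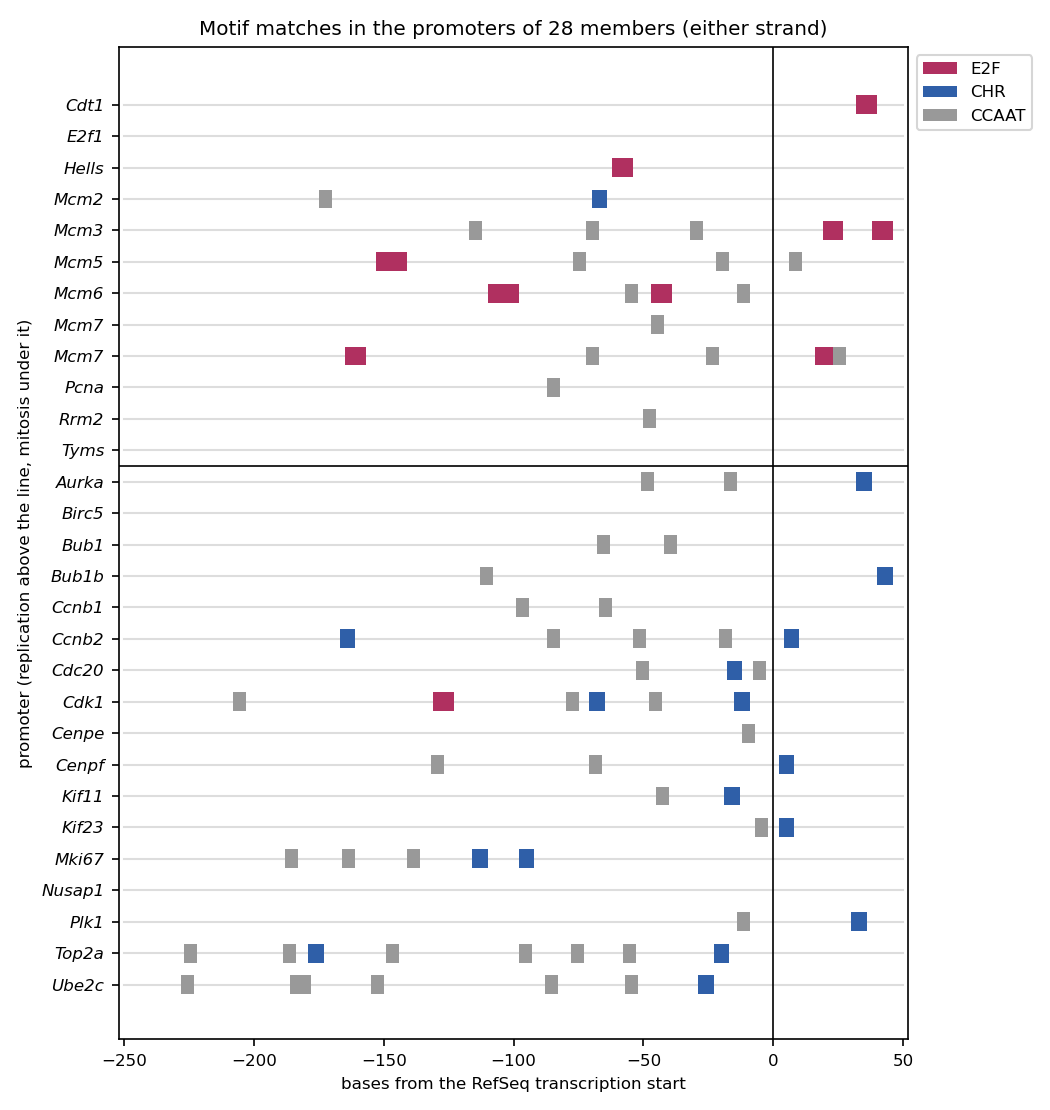
Matches to the E2F words (red), the CHR word (blue) and the CCAAT box (grey) on either strand in the promoters of 28 members, by distance in bases from the RefSeq start; Mcm7 has 2 windows. E2F matches lie above the line, among replication members, except for the 1 of Cdk1, and CHR matches lie under it, except for the 1 of Mcm2. The E2f1 window, without a match, lies inside its gene and not before its 5′ end.

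The 4 promoters printed here belong to the members with the smallest adjusted p of each class, Mcm6 and Mcm5 for replication, Top2a and Ccnb2 for mitosis. Each is shown 5′ to 3′ in the direction of its gene, from 250 bases before to 20 after the RefSeq start on GRCm38.p6, with matched words in capitals on whichever strand they read. The windows lie at chr1:128359686-128359955 (minus strand), chr8:75109259-75109528 (plus strand), chr11:99024170-99024439 (minus strand) and chr9:70421535-70421804 (minus strand). Those of Mcm6 and Mcm5 lie wholly before the 5′ ends of the GENCODE vM21 genes, at 128359664 and 75109569. The RefSeq and GENCODE starts thus differ for both, and distances from the start depend on the annotation.
Mcm6: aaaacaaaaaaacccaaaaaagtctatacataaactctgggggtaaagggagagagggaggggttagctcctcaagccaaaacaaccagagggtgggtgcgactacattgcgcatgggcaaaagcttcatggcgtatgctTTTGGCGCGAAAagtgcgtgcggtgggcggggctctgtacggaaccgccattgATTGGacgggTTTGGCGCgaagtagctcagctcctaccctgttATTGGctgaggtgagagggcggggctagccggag
Mcm5: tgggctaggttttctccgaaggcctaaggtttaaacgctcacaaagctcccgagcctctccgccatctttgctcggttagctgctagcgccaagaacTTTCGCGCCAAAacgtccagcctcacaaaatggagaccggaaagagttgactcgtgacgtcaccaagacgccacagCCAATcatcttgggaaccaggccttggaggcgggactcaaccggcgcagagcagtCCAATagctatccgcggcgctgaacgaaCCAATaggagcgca
Top2a: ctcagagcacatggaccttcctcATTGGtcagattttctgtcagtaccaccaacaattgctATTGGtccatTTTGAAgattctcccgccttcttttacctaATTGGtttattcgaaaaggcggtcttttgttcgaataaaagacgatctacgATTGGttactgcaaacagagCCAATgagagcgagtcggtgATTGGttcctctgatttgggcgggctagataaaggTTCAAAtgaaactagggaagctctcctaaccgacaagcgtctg
Ccnb2: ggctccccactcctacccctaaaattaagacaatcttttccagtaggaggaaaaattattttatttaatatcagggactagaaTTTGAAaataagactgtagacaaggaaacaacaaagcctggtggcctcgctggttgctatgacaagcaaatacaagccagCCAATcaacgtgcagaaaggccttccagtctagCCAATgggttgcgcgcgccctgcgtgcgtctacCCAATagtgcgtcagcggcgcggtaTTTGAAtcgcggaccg
In Mcm6 the capitals hold 3 E2F matches and 2 CCAAT boxes, and in Mcm5 2 E2F matches and 3 CCAAT boxes. The first pair of E2F matches in each of these promoters shares 4 bases, since the words overlap on opposite strands. Top2a holds 2 CHR matches and 6 CCAAT boxes, and Ccnb2 holds 2 CHR matches and 3 CCAAT boxes, with no E2F word in either.

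Among the helicase subunits, Mcm3, Mcm4, Mcm5 and Mcm6 rose in IR+Gli1 over IR+GFP. Mcm6 (ENSMUSG00000026355, chromosome 1, 128331590 to 128359664, GRCm38, minus strand) stood at 6.22 and 5.75 CPM in NT, 4.21 and 3.68 in IR, 3.32 and 4.62 in IR+GFP, 10.7 and 8.62 in IR+Gli1 and 5.50 and 6.27 in IR+Shh. Both IR+Gli1 samples lay above the 8 others, and the IR and IR+GFP samples lay under both NT samples. The level of Mcm6 was 2.44-fold higher in IR+Gli1 than in IR+GFP (log2 1.30 ± 0.20, adjusted p = 0.00584) and 1.61-fold higher than in NT (log2 0.69 ± 0.20, adjusted p = 0.0309). In IR against NT its log2 fold change was -0.60 ± 0.20 and did not pass (adjusted p = 0.186).

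Mcm5 (ENSMUSG00000005410, chromosome 8, 75109569 to 75128439, plus strand) stood at 3.64 and 3.37 CPM in NT, 2.38 and 2.06 in IR, 1.11 and 2.28 in IR+GFP, 6.38 and 5.298 in IR+Gli1 and 1.86 and 2.69 in IR+Shh. The IR+Gli1 samples were again above the rest, and IR, IR+GFP and IR+Shh samples were all under NT. Mcm5 was 3.45-fold higher in IR+Gli1 than in IR+GFP (log2 1.82 ± 0.33, adjusted p = 0.00937), the largest fold of the replication members in this comparison. Unlike Mcm6, it was also lower in IR+Shh than in IR+Gli1 (log2 -1.35 ± 0.32, adjusted p = 0.035), where Mcm6 missed the threshold (log2 -0.72 ± 0.20, adjusted p = 0.0569); the difference between both genes was not tested. Against NT, Mcm5 did not pass in IR+Gli1 (log2 0.74 ± 0.30, adjusted p = 0.109).

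Mcm3 (ENSMUSG00000041859, chromosome 1, 20802968 to 20820312, minus strand) stood at 3.52 and 2.75 CPM in NT, 2.21 and 1.79 in IR, 2.09 and 3.26 in IR+GFP, 6.59 and 5.61 in IR+Gli1 and 3.03 and 2.99 in IR+Shh. IR+Gli1 lay above all others, and IR+GFP overlapped both IR and NT. Mcm3 passed in 3 comparisons of IR+Gli1: against IR+GFP (log2 1.21 ± 0.26, adjusted p = 0.0164), against NT (0.96 ± 0.25, adjusted p = 0.0222), and in IR+Shh against IR+Gli1 (-1.02 ± 0.25, adjusted p = 0.0422). Mcm4 (ENSMUSG00000022673, chromosome 16, 15623897 to 15637400, minus strand) stood at 7.56 and 5.35 CPM in NT, 4.41 and 5.14 in IR, 5.79 and 5.05 in IR+GFP, 9.89 and 9.02 in IR+Gli1 and 5.197 and 6.46 in IR+Shh. Its IR+Gli1 samples were the highest, but the NT samples differed by more than the IR and IR+GFP samples did. Mcm4 rose 1.74-fold in IR+Gli1 over IR+GFP (log2 0.80 ± 0.21, adjusted p = 0.0322) and missed the threshold against NT (0.55 ± 0.20, adjusted p = 0.0762).

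Mcm7 (ENSMUSG00000029730, chromosome 5, 138164583 to 138172422, minus strand) stood at 7.195 and 8.69 CPM in NT, 9.03 and 7.85 in IR, 8.09 and 9.296 in IR+GFP, 12.1 and 11.8 in IR+Gli1 and 9.92 and 8.49 in IR+Shh. It was higher in IR+Gli1 than in every other sample, and its IR and IR+GFP samples overlapped those of NT. Mcm7 passed against NT (log2 0.59 ± 0.15, adjusted p = 0.0219) and not against IR+GFP (0.46 ± 0.15, adjusted p = 0.0795). The sixth subunit, Mcm2, ran from 13.7 to 18.98 CPM over the 10 samples, passed in no comparison, and was highest in IR+Gli1, 17.6 and 19.0 CPM, just above the 17.3 CPM of NT 1. Its log2 fold change in IR+Gli1 against IR+GFP was 0.16 ± 0.11 (adjusted p = 0.396), the smallest of the 6 subunits.

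Cdt1, the loader of the helicase (ENSMUSG00000006585, chromosome 8, 122568015 to 122573554, plus strand), stood at 1.397 and 1.503 CPM in NT, 1.32 and 1.52 in IR, 1.58 and 2.03 in IR+GFP, 3.53 and 2.81 in IR+Gli1 and 1.95 and 1.92 in IR+Shh. IR+Gli1 was above all other samples, while NT and IR overlapped. Cdt1 was 2.19-fold higher in IR+Gli1 than in NT (log2 1.13 ± 0.25, adjusted p = 0.0109), the largest fold over NT among the members that passed, and missed the threshold against IR+GFP (0.83 ± 0.25, adjusted p = 0.0567). Rrm2, the small subunit of ribonucleotide reductase (ENSMUSG00000020649, chromosome 12, 24708241 to 24714146, plus strand), stood at 2.12 and 2.24 CPM in NT, 2.002 and 2.11 in IR, 1.32 and 1.54 in IR+GFP, 2.65 and 2.53 in IR+Gli1 and 2.08 and 2.33 in IR+Shh. Its IR+GFP samples were the lowest and its IR+Gli1 samples the highest of the 10. Rrm2 was 1.81-fold higher in IR+Gli1 than in IR+GFP (log2 0.86 ± 0.23, adjusted p = 0.0359); against NT it was 0.25 ± 0.22 (adjusted p = 0.433).

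The remaining 4 replication members passed in no comparison. Pcna, the sliding clamp, ran from 21.6 to 29.3 CPM, with both NT samples (26.8 and 28.4 CPM) above the IR and IR+GFP samples (21.6 to 25.0 CPM). Tyms, thymidylate synthase, ran from 4.43 to 7.59 CPM, and its 2 highest values were those of IR+Gli1 3 and IR+GFP 3. E2f1 ran from 1.24 to 2.52 CPM and was the replication member with the smallest log2 fold change in IR+Gli1 against IR+GFP, 0.06 ± 0.35. Hells, a chromatin remodeller of S phase, ran from 0.852 to 1.59 CPM with overlapping groups.

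**Figure D3:**
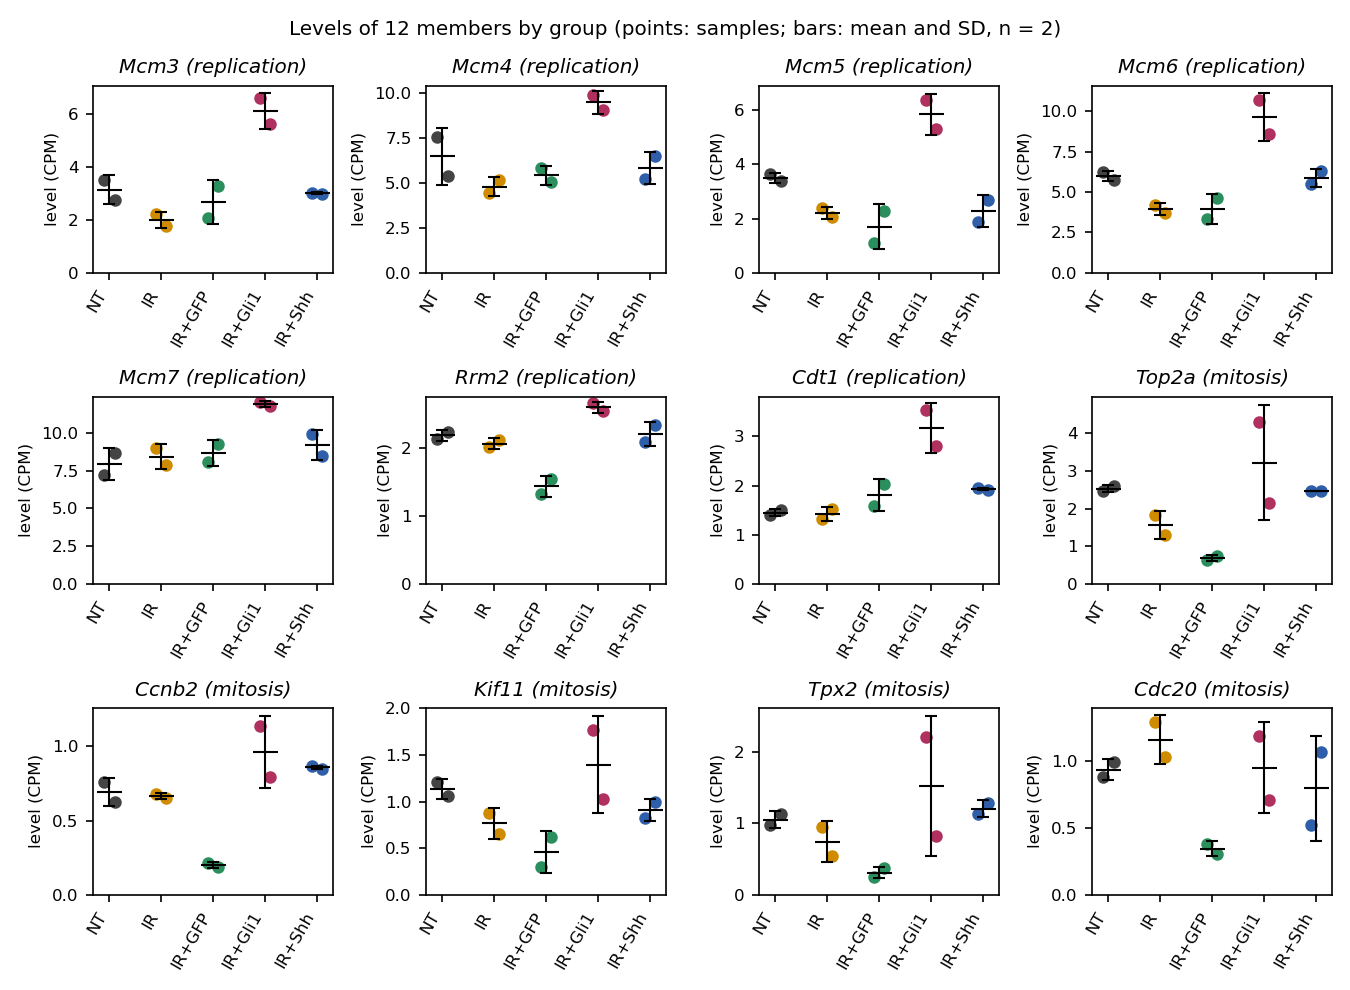
Level in CPM (vertical axis, linear from 0) of 12 members in the 5 groups; points are samples and bars the mean with the SD of n = 2. In the 7 replication panels both IR+Gli1 points stand above all other points, and in the panels of Top2a, Ccnb2, Kif11, Tpx2 and Cdc20 both IR+GFP points lie under all others.

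Of the mitosis members, Top2a, Ccnb2, Kif11 and Tpx2 rose in IR+Gli1 over IR+GFP. Top2a, the topoisomerase that untangles sister chromatids (ENSMUSG00000020914, chromosome 11, 98992943 to 99024189, minus strand), stood at 2.46 and 2.602 CPM in NT, 1.83 and 1.299 in IR, 0.639 and 0.739 in IR+GFP, 4.305 and 2.13 in IR+Gli1 and 2.47 and 2.47 in IR+Shh. The IR+GFP samples were the lowest of the 10, IR came next, and IR+Gli1 3 lay under the NT samples while IR+Gli1 1+2 lay above all. Top2a was 4.67-fold higher in IR+Gli1 than in IR+GFP (log2 2.25 ± 0.38, adjusted p = 0.00749). It did not differ past the threshold from NT in IR+Gli1 (0.37 ± 0.33, adjusted p = 0.444) or in IR+GFP (-1.88 ± 0.38, adjusted p = 0.0643), and the DESeq2 test called the latter.

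Ccnb2, a B-type cyclin (ENSMUSG00000032218, chromosome 9, 70407692 to 70421547, minus strand), stood at 0.759 and 0.623 CPM in NT, 0.679 and 0.6496 in IR, 0.213 and 0.185 in IR+GFP, 1.14 and 0.791 in IR+Gli1 and 0.866 and 0.849 in IR+Shh. Its IR+GFP samples were apart from all others, which ran from 0.623 to 1.14 CPM; behind them stood 3 to 6 reads per library. Ccnb2 was 4.84-fold higher in IR+Gli1 than in IR+GFP (log2 2.26 ± 0.41, adjusted p = 0.0095). With IR+Shh in place of IR+Gli1 the log2 fold change was nearly as large, 2.07 ± 0.42, and did not pass (adjusted p = 0.439).

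Tpx2, which targets Aurka to the spindle (ENSMUSG00000027469, chromosome 2, 152847964 to 152895321, plus strand), stood at 0.972 and 1.14 CPM in NT, 0.9501 and 0.541 in IR, 0.256 and 0.369 in IR+GFP, 2.22 and 0.8303 in IR+Gli1 and 1.13 and 1.29 in IR+Shh. IR+GFP was again lowest, and IR+Gli1 3 lay under both NT samples while IR+Gli1 1+2 lay above all. Its rise in IR+Gli1 over IR+GFP was log2 2.33 ± 0.55 (adjusted p = 0.0227). Kif11, the kinesin that separates the spindle poles (ENSMUSG00000012443, chromosome 19, 37376403 to 37421859, plus strand), stood at 1.21 and 1.06 CPM in NT, 0.882 and 0.6496 in IR, 0.298 and 0.616 in IR+GFP, 1.76 and 1.03 in IR+Gli1 and 0.823 and 0.996 in IR+Shh. Its IR+GFP values lay under the other 8, while IR+Gli1 3 lay under both NT samples. Kif11 rose by log2 1.67 ± 0.44 in IR+Gli1 over IR+GFP (adjusted p = 0.0353). Cdc20, an activator of the anaphase-promoting complex, did not pass and stood at 0.8805 and 0.9896 CPM in NT, 1.29 and 1.03 in IR, 0.383 and 0.308 in IR+GFP, 1.19 and 0.712 in IR+Gli1 and 0.5197 and 1.07 in IR+Shh. Its IR+GFP samples were the lowest, both IR samples were above NT, and its log2 fold change was 1.46 ± 0.47 in IR+Gli1 over IR+GFP (adjusted p = 0.0696) and -1.73 ± 0.48 in IR+GFP against IR (adjusted p = 1).

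The marker of cycling cells Mki67, shown because it is the usual one and with its values already seen, stood at 3.92 and 3.15 CPM in NT, 3.56 and 2.81 in IR, 1.49 and 3.14 in IR+GFP, 4.59 and 3.68 in IR+Gli1 and 3.94 and 5.17 in IR+Shh. IR+GFP 1+2 was apart from its own group, IR+GFP 3 lay among the NT and IR samples, and IR+Shh 2 was the highest. The log2 fold change of Mki67 was 0.87 ± 0.34 in IR+Gli1 (adjusted p = 0.12) and 1.00 ± 0.34 in IR+Shh (adjusted p = 0.806), each against IR+GFP. Its mean was 2.31 ± 1.17 CPM in IR+GFP and 4.55 ± 0.866 CPM in IR+Shh.

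The other cyclins and kinases passed in no comparison. Ccnb1 ran from 0.293 to 0.7804 CPM, with the highest value in IR 1+2, and was the 1 mitosis member with a higher mean in IR+GFP than in NT. Ccna2, the cyclin of S phase and G2, ran from 0.383 to 1.44 CPM; its IR and IR+GFP samples (0.383 to 0.739 CPM) lay under both NT samples (1.06 and 1.31 CPM), with a log2 fold change of -1.04 ± 0.48 in IR against NT (adjusted p = 0.301). Cdk1, their partner kinase, ran from 0.639 to 1.55 CPM. The mitotic kinases Plk1 and Aurka ran from 0.246 to 0.937 CPM and from 0.492 to 1.796 CPM. Aurka had its lowest value in IR+GFP 3, and Plk1 its highest in IR+Gli1 1+2.

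Checkpoint, kinetochore and spindle members followed with small counts. Bub1b, the spindle checkpoint kinase with the most reads here, ran from 0.985 to 2.11 CPM; both IR+GFP samples were under the other 8, and in IR+Gli1 it missed the threshold (log2 0.89 ± 0.27, adjusted p = 0.0597). Cenpe, a kinetochore motor, ran from 0.1704 to 1.23 CPM, and Cenpf, a kinetochore protein, from 0.123 to 1.22 CPM. Cenpe had 0 reads in IR+GFP 2, which allows up to 0.144 CPM, and Cenpf had 2 reads in IR+GFP 3. Cenpf was the mitosis member with the largest deficit in IR+Gli1 against NT (log2 -1.04 ± 0.60, adjusted p = 0.234). Birc5, the survivin of the chromosomal passenger complex, ran from 0.213 to 1.68 CPM with its highest value in IR+Gli1 1+2. Its IR+Gli1 samples stood at 1.68 and 0.514 CPM, and the second of these lay under NT 2+3.

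The kinesins of cell cleavage, Kif20a and Kif23, ran from 0.426 to 1.05 CPM and from 0.1704 to 0.955 CPM. Kif20a was not higher in IR+Gli1 (mean 0.581 ± 0.0951 CPM) than in NT (0.886 ± 0.0942 CPM). Nusap1, a binder of spindle microtubules, ran from 0.341 to 1.06 CPM, and Ube2c, the ubiquitin carrier of the anaphase-promoting complex, from 0.487 to 1.22 CPM. IR+GFP 1+2 was the lowest sample for Kif23 and Nusap1, and IR+GFP 3 lay within the range of NT and IR for both and for Ube2c. Aurkb and Bub1 did not pass the filter on low counts and were not tested. Aurkb had 1 to 38 reads per library and Bub1 0 to 42, with 0 reads in IR+GFP 3, which allows up to 0.163 CPM.

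IR against NT asked what irradiation alone left behind after 7 days. No replication or mitosis member passed, although most stood lower. With edgeR, 0 of 31 tested members passed, 2 had an unadjusted p under 0.05 (Mcm6 and Mcm3), and DESeq2 and limma-voom called 0 as well. Across all genes 0.517% were called higher and 0.168% lower. The median log2 fold change was -0.20 for replication members, -0.19 for mitosis members and -0.02 for all genes, and 11 of 12 replication members and 12 of 19 mitosis members were below 0. Samples did not overlap, with IR lower, for 13 of 31 members, against 27.3% of all genes; 8 of the 13 were replication members. Fits of the 15 libraries as separate samples called 7 members without and 4 with a replicate block, but count near-identical libraries as independent.

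IR+GFP against IR asked what the control transfer itself brought with it. Mitosis members were lower in IR+GFP by their medians and replication members were not. All 19 tested mitosis members had a log2 fold change below 0, between -1.73 and -0.07 with a median of -0.53, against a median of 0.06 for replication members and 0.00 for all genes. With edgeR 0 of 31 members passed, as did 0% of all genes in either direction, while 6 members had an unadjusted p under 0.05 (Ccnb2, Cdc20, Top2a, Cenpf, Tpx2 and Rrm2). DESeq2 and limma-voom called 0 members, and of all genes 298 had an unadjusted p under 0.05, DESeq2 called 7 and limma-voom 0. Samples did not overlap, with IR+GFP lower, for 10 of 31 members, against 16% of all genes, and 9 of the 10 were mitosis members. Ccnb2 had the smallest p (log2 -1.71 ± 0.43, adjusted p = 1).

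IR+GFP against NT set irradiation and control transfer together against untreated glands. Mitosis members had the lower median here too, in samples shared with the comparison before. The median log2 fold change was -0.78 for mitosis members, -0.25 for replication members and -0.02 for all genes, and 18 of 19 mitosis members were below 0. With edgeR 0 of 31 members passed, against 0.622% of all genes higher and 0.119% lower; 11 had an unadjusted p under 0.05, DESeq2 called 1 (Top2a) and limma-voom 0. The nearest to the threshold were Top2a (log2 -1.88 ± 0.38, adjusted p = 0.0643), Ccnb2 (-1.77 ± 0.42, adjusted p = 0.103) and Mcm5 (-1.08 ± 0.33, adjusted p = 0.172). Samples did not overlap, with IR+GFP lower, for 18 of 31 members, against 25.1% of all genes, of which 14 were mitosis members. Without a filter on low counts 4 members passed (Mcm5, Top2a, Ccnb2 and Tpx2), and 16 passed when the 15 libraries were fitted separately, with or without a replicate block.

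IR+Gli1 against IR+GFP asked what Gli1 transfer changed over the control transfer. Replication and mitosis members were higher together, by a median log2 of 0.63 and 1.07 against 0.00 for all genes. Of 31 tested members 9 rose and 0 fell, against 8.33% of all genes higher and 5.71% lower. The 9 were 5 of 12 replication members (Mcm3, Mcm4, Mcm5, Mcm6 and Rrm2) and 4 of 19 mitosis members (Top2a, Ccnb2, Tpx2 and Kif11). DESeq2 called 7 of them, without Rrm2 and Kif11, and limma-voom called 9, with Cdt1 in place of Tpx2. Fitted without the other groups, IR+Gli1 and IR+GFP gave 0 calls. The other 22 did not pass, but all 31 had a log2 fold change above 0, from 0.06 (E2f1) to 2.33 (Tpx2), also under both other scalings. Samples did not overlap, with IR+Gli1 higher, for 25 of 31 members, against 28.9% of all genes.

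The 4 mitosis members that rose stood low in the control group. Their IR+GFP level was 0.272 (Top2a) to 0.401 (Kif11) times that of NT. With edgeR none of the 4 differed from NT past the threshold, either in IR+GFP (adjusted p = 0.0643 to 0.194) or in IR+Gli1. The 4 were picked by a rise over these same IR+GFP samples, so low values there are partly built in. With the IR and IR+GFP samples together as control, 11 members rose, the 9 above with Mcm7 and Cdt1. By library kind, IR+Gli1 1+2 was above IR+GFP 1+2 in 12 of 12 replication and 19 of 19 mitosis members, with median log2 differences of 0.72 and 1.58. IR+Gli1 3 was above IR+GFP 3 in 11 of 12 and 17 of 19, with medians of 0.40 and 0.32. With a term for this pairing of samples, which is a replicate block of both groups, 11 members rose (6 of replication and 5 of mitosis), adding Cdt1 and Bub1b.

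The count rested on single samples. It was 0 without IR+GFP 1+2, 6 without IR+GFP 3, 3 without IR+Gli1 1+2 (Mcm5, Mcm6 and Top2a) and 13 without IR+Gli1 3, each fit leaving 1 sample in a group and taking its spread from the others. Scaling to total counts, under which the all-gene median was 0.79, called 28 members and 9656 genes higher with 89 lower, where TMM scaling called 1191 higher and 817 lower. Under it the medians were 1.43 for replication and 1.89 for mitosis members, above that shift.

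Leukocyte genes were highest in the group where the replication members were highest. The 6 pan-leukocyte markers summed to 202.7 and 105.9 CPM in IR+Gli1 and to 25.9 to 67.5 CPM in the other 8 samples, and 6 of 6 rose in IR+Gli1 over IR+GFP. Markers of T and NK cells summed to 92.4 and 36.7 CPM in IR+Gli1 and to 2.98 to 14.8 CPM elsewhere, and 8 of 12 tested rose; Cd3d had no reads in 4 of the 8 other samples. Macrophage markers summed to 389 and 317 CPM against 119 to 250. Of these 12 markers 6 rose over IR+GFP, and 3 had a log2 fold change below 0 (Mrc1, Cd163 and Mertk). Cd163 stood at 0.667 and 2.57 CPM in IR+Gli1 and at 2.43 and 3.45 CPM in IR+GFP. Markers of monocytes and neutrophils summed to 179 and 49.9 CPM against 3.54 to 11.3, and 4 of 5 tested rose. B and plasma cell markers stayed at 0.341 to 3.28 CPM in all samples, with Pax5 at 0 throughout and 1 of 2 tested rising. Genes of lymph nodes and germinal centres summed to 32.8 CPM in IR+Gli1 1+2 and to 9.64 to 16.7 CPM in the rest. Within IR+Gli1, the sample with more leukocyte RNA also had the higher sums of members, 107.7 against 100.6 CPM for replication and 31.6 against 19.6 CPM for mitosis. The same order held within IR+GFP, with 25.9 and 43.0 CPM of pan-leukocyte markers, 70.1 and 76.2 CPM of replication members and 9.71 and 13.2 CPM of mitosis members. In NT and IR+Shh the sample with more leukocyte RNA had the lower mitosis sum. Replication sums were 84.8 and 81.8 CPM in NT, beside 67.5 and 40.1 CPM of pan-leukocyte markers. In IR+Shh the replication sums had the opposite order, 78.9 and 81.1 CPM beside 54.7 and 53.8 CPM. IR had 32.3 and 31.1 CPM of pan-leukocyte markers, 69.3 and 72.4 CPM of replication members and 20.7 and 15.9 CPM of mitosis members. Granular tubule genes were at 51380 and 97220 CPM in IR+Gli1 and at 140800 or more elsewhere, and 10 of 12 fell against IR+GFP. Duct and basal cell markers summed to 1589 and 1319 CPM in IR+Gli1 and to 1045 to 1161 CPM elsewhere; 3 of 12 rose and 1 fell against IR+GFP. Endothelial markers summed to 46.0 and 37.8 CPM against 16.9 to 31.8 CPM, and 1 of 7 rose. The part of these cell types in the levels of the members was not tested.

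**Figure D4:**
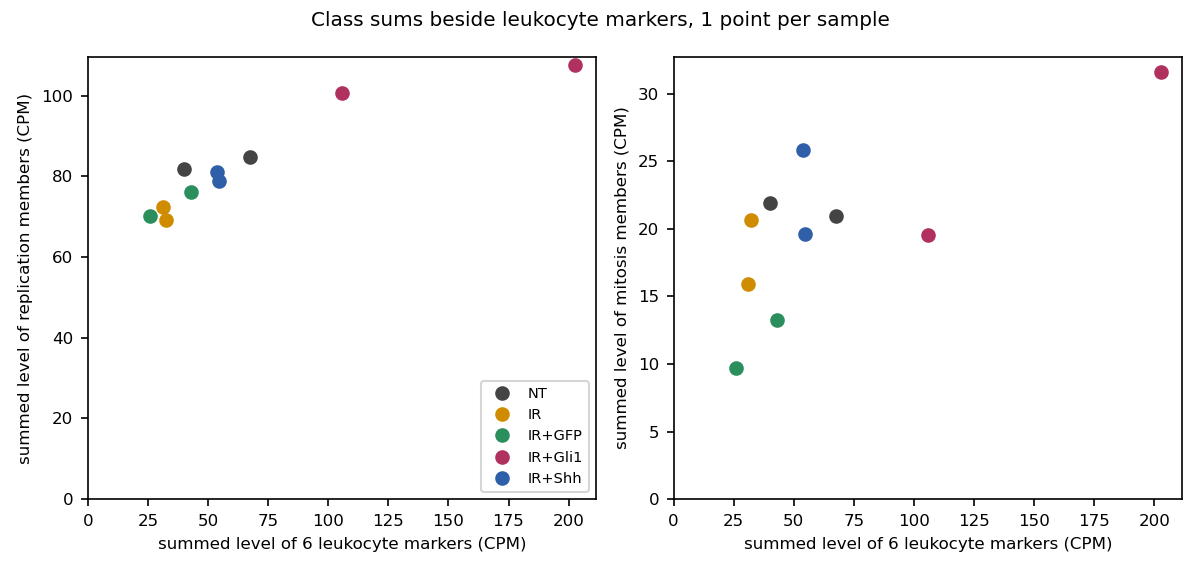
Summed level in CPM of the 12 replication members (left) and the 21 mitosis members (right) against the summed level of 6 leukocyte markers (horizontal axis, CPM), 1 point per sample. The IR+Gli1 points lie farthest right in both panels and highest on the left; on the right IR+Gli1 3 lies at the level of NT, and both IR+GFP points are the lowest.

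**Figure D5:**
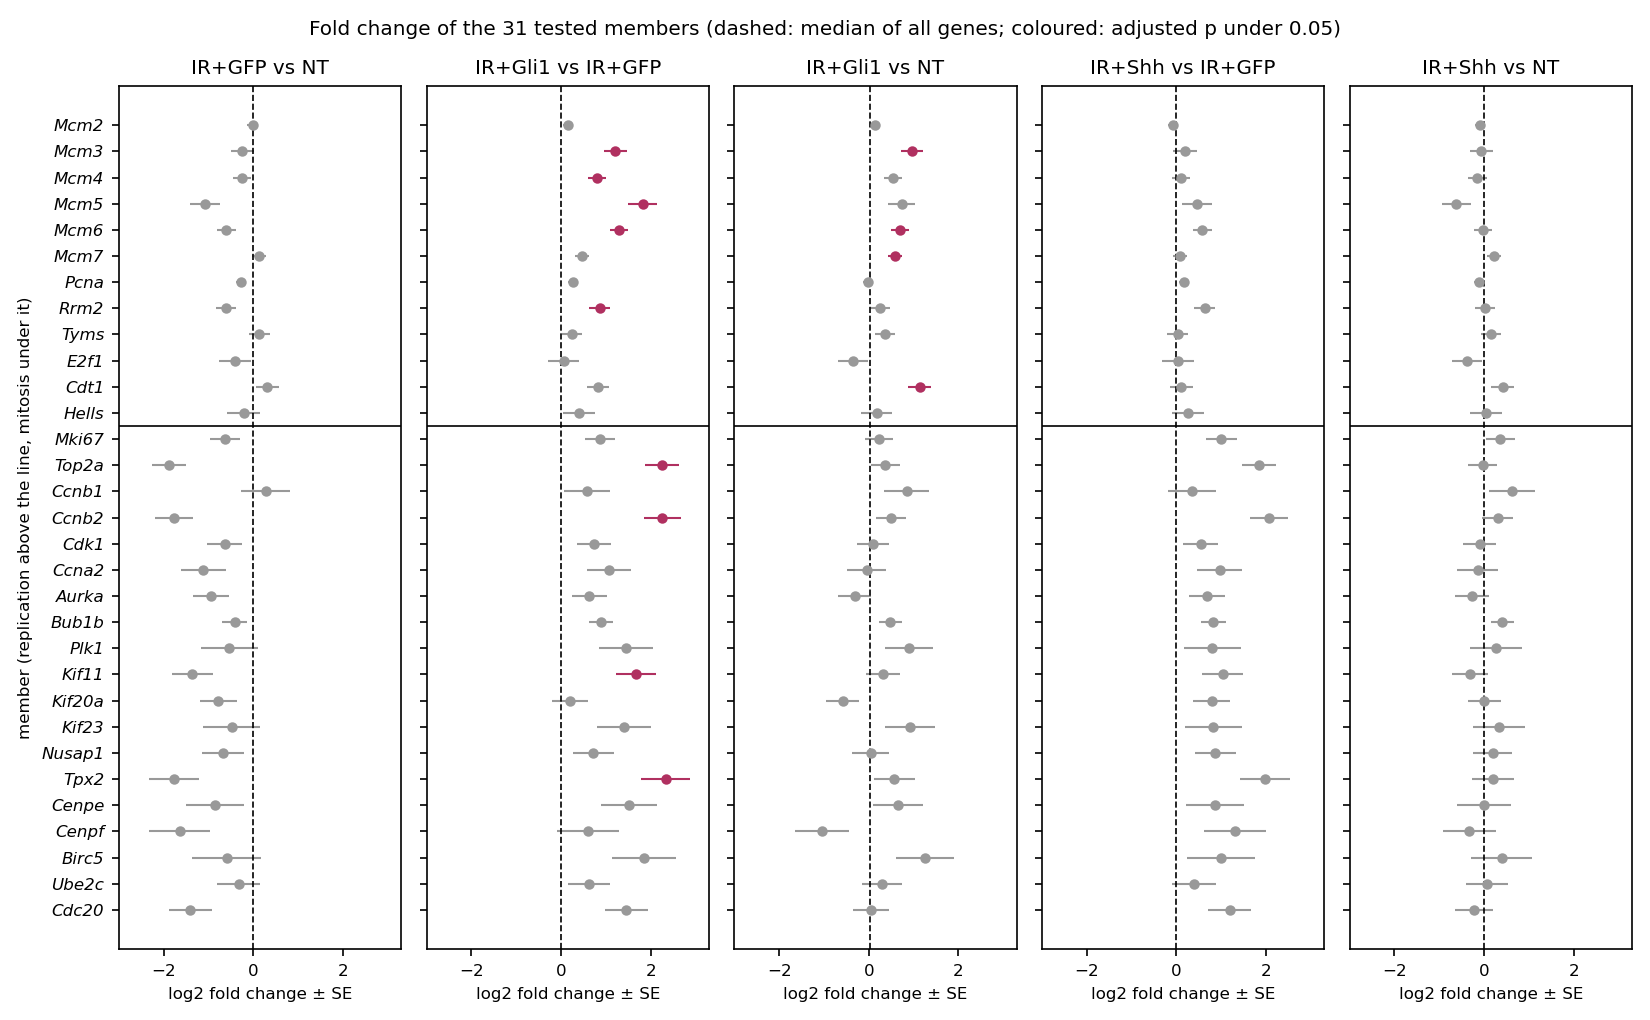
Log2 fold change with its standard error (horizontal axis) of the 31 tested members in 5 comparisons, with the median of all genes dashed and members at adjusted p under 0.05 in red. IR+Gli1 has red points against IR+GFP in both classes (9) and against NT among replication members (4); both IR+Shh panels have none.

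IR+Gli1 against NT asked how these glands compared with glands never irradiated. Some replication members rose above the untreated level, and no mitosis member passed in either direction. Of 31 tested members 4 rose, all of replication (Cdt1, Mcm7, Mcm3 and Mcm6), and 0 fell, against 12.3% of all genes higher and 11.5% lower, so the share of members called higher was close to that of all genes. The median log2 fold change was 0.46 for replication members, 0.31 for mitosis members and 0.03 for all genes. The members below 0 were 2 of replication and 4 of mitosis, a split that holds for TMM scaling: with total-count scaling the all-gene median was 0.79 and Pcna, at -0.01 ± 0.11 here, was called higher. That scaling called 22 members and, of all genes, 9270 higher and 229 lower, where TMM called 1759 and 1640. The count was 0 without IR+Gli1 1+2, 2 without NT 1 (Mcm3 and Mcm4) and 2 without NT 2+3 (Mcm7 and Cdt1).

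IR+Shh against IR+GFP asked the same question of the ligand. Mitosis members were higher by their median and replication members little, without a call. The median log2 fold change was 0.87 for mitosis members, 0.14 for replication members and 0.00 for all genes, and 30 of 31 members were above 0. With edgeR 0 of 31 members passed, as did 0% of all genes in either direction; 9 had an unadjusted p under 0.05, and DESeq2 and limma-voom called 0. Of all genes 873 had an unadjusted p under 0.05, DESeq2 called 33 and limma-voom 0. The nearest were Ccnb2 (log2 2.07 ± 0.42), Top2a (1.84 ± 0.38) and Tpx2 (1.97 ± 0.56), with adjusted p = 0.439, adjusted p = 0.439 and adjusted p = 0.806. Samples did not overlap, with IR+Shh higher, for 16 of 31 members, against 21.7% of all genes, and 13 of the 16 were mitosis members. This comparison shares its IR+GFP samples with those above, and 4 members passed without a filter on low counts (Mki67, Top2a, Ccnb2 and Tpx2).

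IR+Shh against NT asked whether these glands differed from untreated ones. The classes had medians of -0.04 (replication) and 0.06 (mitosis), with 0.00 for all genes. With edgeR 0 of 31 members passed and 0 had an unadjusted p under 0.05, and DESeq2 and limma-voom called 0, where 1.36% of all genes were higher and 0.895% lower. The smallest p was that of Mcm5 (log2 -0.62 ± 0.32, adjusted p = 0.307), which in both IR+Shh samples lay under both NT samples. Fits of the 15 separate libraries called 1 member, Mcm5, where the fit without a replicate block called 4447 of all genes.

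IR+Shh against IR+Gli1 compared both Hedgehog transfers directly. Mcm5 and Mcm3 were lower in IR+Shh, and no mitosis member passed. Of 31 tested members 2 fell in IR+Shh and 0 rose, against 2.77% of all genes higher and 4.98% lower, so the share that fell was near that of all genes. All 12 replication members had a log2 fold change below 0 (median -0.31), as had 14 of 19 mitosis members (median -0.23), beside -0.02 for all genes. Mcm6 (adjusted p = 0.0569) and Mcm4 (adjusted p = 0.0659) followed. Total-count scaling moved the all-gene median to -0.67, left 1 member above 0 (Cenpf) and called 12; of all genes it called 85 higher and 8027 lower, where TMM called 396 and 713. The count was 0 without IR+Gli1 1+2, without IR+Shh 1+3 and without IR+Shh 2.

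Other genes of the same pathways, from lists named beside the set, were tested in the same fit. Of 39 other replication genes, 5 rose and 0 fell in IR+Gli1 over IR+GFP, where 8.33% of all genes rose, with a median log2 of 0.58. Among them were Rfc2, a subunit of the clamp loader (0.61 ± 0.13, adjusted p = 0.0174), Prim1, a primase subunit (0.80 ± 0.19, adjusted p = 0.0245), and Lig1, a DNA ligase (0.68 ± 0.17, adjusted p = 0.0314). Of 55 other mitosis genes, 2 rose, Racgap1 (1.33 ± 0.31, adjusted p = 0.0217) and Cdca5 (2.40 ± 0.62, adjusted p = 0.0328), and 1 fell, the Cdk-binding Cks1b (-0.84 ± 0.16, adjusted p = 0.0103); the median was 0.48, and the share that rose was under that of all genes. The fall of Cks1b holds for TMM scaling, since with total-count scaling its value was -0.05 and did not pass. Against NT, 4 other replication genes rose in IR+Gli1 and 0 fell, with Pold1 (0.65 ± 0.14), Lig1 (0.68 ± 0.17) and Timeless (1.20 ± 0.33) among them, and 3 other mitosis genes rose and 1 fell. The share that rose was under the 12.3% of all genes in both lists. Of the mitosis genes, Gtse1, a regulator of p53 in G2 (3.02 ± 0.46, adjusted p = 0.0025), and Ckap2, a spindle protein (0.86 ± 0.21, adjusted p = 0.0187), rose, and the 1 that fell was Cks1b (-1.24 ± 0.16, adjusted p = 0.00112), a call that total-count scaling also lost (-0.48). Ckap2 and Gtse1 were above both NT samples in every irradiated sample: Ckap2 stood at 5.78 and 5.54 CPM in IR+Gli1 and at 4.81 to 6.86 CPM in the other irradiated samples, with 3.49 and 2.75 CPM in NT. Gtse1 stood at 7.17 and 2.45 CPM in IR+Gli1 and at 1.96 to 2.82 CPM in the other irradiated samples, with 0.577 and 0.623 CPM in NT. Neither passed against NT in IR, IR+GFP or IR+Shh. In IR+Shh over IR+GFP edgeR called 0 genes of both lists, with 6 and 8 at an unadjusted p under 0.05 and medians of 0.26 (replication) and 0.51 (mitosis). In IR against NT it also called 0, with 3 and 5 at an unadjusted p under 0.05 and medians of -0.20 and -0.17.

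Genes that act before S phase and cell cycle inhibitors were read beside the members. Of 14 tested G1 cyclins, kinases and E2F genes, Ccnd2, a D-type cyclin, and E2f2 rose in IR+Gli1 over IR+GFP (0.92 ± 0.18 and 1.64 ± 0.38, adjusted p = 0.0132 and adjusted p = 0.0217), and Cdc25a fell (-0.50 ± 0.12, adjusted p = 0.0263), with a list median of 0.09. Of all genes 8.33% rose and 5.71% fell there. Total-count scaling turned the sign of Cdc25a in this comparison (0.28) and ended its call. Cdc25a, the phosphatase that activates Cdk2, was also lower than NT in each irradiated group, with log2 fold changes of -1.16 ± 0.12 (IR+Gli1), -0.84 ± 0.12 (IR+Shh), -0.72 ± 0.12 (IR) and -0.66 ± 0.12 (IR+GFP). These comparisons share the NT samples, and total-count scaling kept the 4 signs against NT but called none (-0.42, -0.73, -0.75 and -0.69). Of 24 tested inhibitors and pocket proteins, the groups IR, IR+GFP and IR+Shh each had 3 that rose over NT and 0 that fell, the p53 targets Cdkn1a, Ccng1 and Sesn2 each time. Cdkn1a stood at 1.40 and 1.17 CPM in NT, 22.3 and 24.0 in IR, 24.0 and 37.3 in IR+GFP, 124.8 and 67.6 in IR+Gli1, and 23.1 and 27.5 in IR+Shh. The inhibitor was thus higher in IR+Gli1 than in every other sample, as the Mcm genes were (log2 1.66 ± 0.30 over IR+GFP, adjusted p = 0.0131). In the same comparison 2 of the 24 rose and 2 fell, shares close to the 8.33% and 5.71% of all genes. Cdkn1a and the stress kinase Plk3 (1.15 ± 0.28) rose. The 2 that fell were E2f5 (-0.66 ± 0.10, adjusted p = 0.0046) and the stress gene Gadd45a (-1.09 ± 0.25, adjusted p = 0.0267), named after its values were seen. Total-count scaling ended both of these calls, with E2f5 at 0.13 and Gadd45a at -0.34. Against NT, 6 of the 24 rose in IR+Gli1 and 2 fell, where 12.3% of all genes rose and 11.5% fell. The same 2 genes fell, and total-count scaling again ended their calls (E2f5 0.13, Gadd45a -0.25). Of the genes that rose, Cdkn1a had the smallest adjusted p (6.22 ± 0.40, adjusted p = 0.000293). In IR+Shh against IR+Gli1, Cdkn1a (-1.93 ± 0.30), Plk3 (-1.27 ± 0.28) and Ccnd2 (-0.85 ± 0.18) fell, and Cks1b rose (0.62 ± 0.16), a call that total-count scaling ended (-0.02).

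Some members share sequence with other genes, which bears on their counts. Exon bases are shared with another gene for 8 members, for 4 of them over 10% of their exons: Kif20a (29.3%, with Cdc23), Ube2c (22.8%, with Tnnc2), Mcm7 (12.6%, with Ap4m1, Cops6 and 2 microRNAs) and Ccna2 (12.5%, with Exosc9), all on the opposite strand apart from the microRNAs. Whether the counting used strand is not given in the sources used here, so reads of such partners may be mixed or left out. Pcna, Tyms, Ccnb1 and Ccnb2 have pseudogenes named after them, and reads with several alignments stand in the tables under a class of their own.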

How the data were processed

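Total RNA of 15 mouse submandibular gland libraries was sequenced on an Illumina instrument. The deposited values are unnormalized read counts for each Ensembl gene, made by the authors with Bowtie 0.12.2, TopHat2 2.0.13 and HTSeq 0.10.0 on mm10, per the submitters' processing notes, which also name DESeq2; the HTSeq strand setting is not given in the sources used here. Classes of reads given to no gene held 6.98% to 13.9% of each library and stayed out. Symbols came from GENCODE vM21 and matched 96.2% of the genes. Near-identical libraries were combined by the rounded mean of their counts, giving 10 samples. The members and lists were chosen with earlier results of these data known. Genes passing edgeR's filterByExpr (14304) were fitted with edgeR 4.0.16 (TMM scaling, robust quasi-likelihood test, two-sided, 1 mean per group, 5 residual degrees of freedom) and p-values of the 8 comparisons were adjusted with the Benjamini-Hochberg method across these genes (threshold 0.05). Depth limits precision: 0 reads in a library allow 0.0731 to 0.165 CPM (3 reads, counting error only). Values in every sample are given for members that passed in any comparison with Cdc20 added by its p to make 5 of mitosis, and Mki67 was added after its values were seen; of the other lists, up to 3 genes that passed are named. Alternatives were separate libraries with or without a replicate block, the deeper library of each pair, other scalings, no filter, DESeq2 1.42.0, limma-voom 3.58.1, the compared groups alone and each sample left out. A model term shared by IR+GFP 3 and by IR+Gli1 3 was added after seeing the data: the deviations of same-numbered libraries of these groups from their means had r of 0.535 to 0.598 over genes (3 pairs, near-identical libraries included), and the 27 other pairs had r of -0.086 to 0.077.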

Additional observations from a re-analysis of the deposited data

How the results depend on the processing

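Of 4521 single-gene values under the alternatives, 4092 kept direction and side of the threshold, 219 lost a call, 205 gained one and 5 turned sign. All 5 came with total-count scaling: Pcna in IR+Gli1 against NT (0.76), Cdc25a (0.28) and E2f5 (0.13) in IR+Gli1 against IR+GFP, E2f5 in IR+Gli1 against NT (0.13), and Cks1b in IR+Shh against IR+Gli1 (-0.022).

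With 15 separate libraries and no replicate block, the members called were 7 in IR against NT, 16 in IR+GFP against NT, 1 in IR+GFP against IR, 23 in IR+Gli1 against IR+GFP, 7 in IR+Shh against IR+GFP, 9 in IR+Shh against IR+Gli1, 14 in IR+Gli1 against NT and 1 in IR+Shh against NT. With the replicate block these were 4, 16, 0, 22, 7, 9, 15 and 1. Near-identical libraries enter both fits as independent samples. The replicate block of IR+GFP 3 and IR+Gli1 3 gave 11 members in IR+Gli1 against IR+GFP and left the count of each other comparison as it was.

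Total-count scaling called 28 in IR+Gli1 against IR+GFP, 12 in IR+Shh against IR+Gli1 and 22 in IR+Gli1 against NT. Without the filter on low counts 4 members each passed in IR+GFP against NT, IR+Shh against IR+GFP and IR+Shh against IR+Gli1, and the DESeq2 test called 1 in IR+GFP against NT. Fitted alone, with 2 residual degrees of freedom, the groups gave 0 members in IR+Gli1 against IR+GFP, IR+Shh against IR+Gli1 and IR+Gli1 against NT. Leaving out single samples gave 0 to 13 in IR+Gli1 against IR+GFP, 0 to 3 in IR+Shh against IR+Gli1 and 0 to 4 in IR+Gli1 against NT. The causes were not tested. The last 2 settings also leave fewer samples, and the part of this was not separated from the part of the samples left out. Mitosis members rest on a median of 21 reads in a library and replication members on 104.5; the part of depth in the calls was not tested.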
